A study of Arabidopsis thaliana with 15 samples.

Results

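Genes whose transcripts were low in the brassinosteroid receptor mutant bri1-5 were described here across 5 Arabidopsis thaliana genotypes. They were those that regained little or none of the gap to wild type in the bak1-1D suppressor line. A gene was taken where the mean log2 value in bri1-5 lay at least 0.7 below that in WS2 and where bak1-1D regained at most 25% of that gap. Of 8661 tested single-gene probe sets 142 probe sets met the first condition and 37 met both. Of these 37, XTH16, XTH33, THI2.1, APL4, JAL23 and AT1G14210 were left out by name, which left 31 genes. The members were thus chosen by their values on the 3 arrays each of bak1-1D, bri1-5 and WS2, and differences among these genotypes are given as a description with no test.

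RNA came from whole seedlings, harvested after 5 days in the light on plates holding 1% sucrose, and was hybridised to 15 Affymetrix arrays, 3 biological replicates of each genotype per the series' own design statement. The genotypes were bri1-5/bak1-1D, bri1-5/brs1-1D and bri1-5/bri1-1D, called below by the name of the suppressor, the bri1-5 single mutant, and wild type WS2. Every line except WS2 carries bri1-5, and all share the WS2 background. The labels give no number of seedlings per array and describe each suppressor by name only, and the level of BRI1, BAK1 and BRS1 themselves was not analysed here.

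Brassinosteroids are plant steroid hormones that promote cell elongation. They are perceived at the cell surface by the receptor kinase BRI1, which acts with the co-receptor kinase BAK1 and, through a kinase cascade, leads the transcription factors BZR1 and BES1 to change the expression of many growth genes. The bri1-5 allele is a weak receptor allele that gives semi-dwarf plants, and bak1-1D and brs1-1D were isolated as dominant suppressors of that dwarfism. BRS1 is a secreted serine carboxypeptidase-like protein.

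Medians of the tested probe sets lay between 6.75 and 6.82 on the 15 arrays. RCA, the Rubisco activase of green tissue, stood at 13.07 to 13.28 and PYK10, a root beta-glucosidase, at 11.82 to 12.10, so green and root RNA were both measured on every array. With the root hair expansins EXPA7 and EXPA18 they made up 1 of 9 shoot and 3 of 7 root markers that had a named probe set; those of flowers and seeds were not analysed here. In RNA from whole seedlings, fewer cells of a type and less RNA per cell cannot be told apart.

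Between bri1-5 and WS2 the 31 genes differed by -1.18 to -0.71 on the log2 scale (median -0.82, beside 0.02 over all 15912 tested probe sets), so that bri1-5 held 44.3 to 61.3% of the WS2 level. In bak1-1D they stood -0.74 to 0.27 from bri1-5 (median 0.08). A gene is named as called where its adjusted p lay under 0.05 in a limma model over all 15912 probe sets, those with a log2 value above 4 on at least 3 of the 15 arrays. Of the 31, 28 passed the model's threshold as lower in bri1-5, where 8.14% of all probe sets did so, and 28 as lower in bak1-1D against WS2, where the share was 5.14%, and nothing is read from counts that the choice of members sets. The 3 that did not pass in bri1-5 were rps14, ndhF and AT2G16005, whose arrays scattered most. With the replicate number as a block all 31 passed there, AT2G16005 only just. That count too is set by the choice of members, and nothing is read from it.

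**Figure D1:**
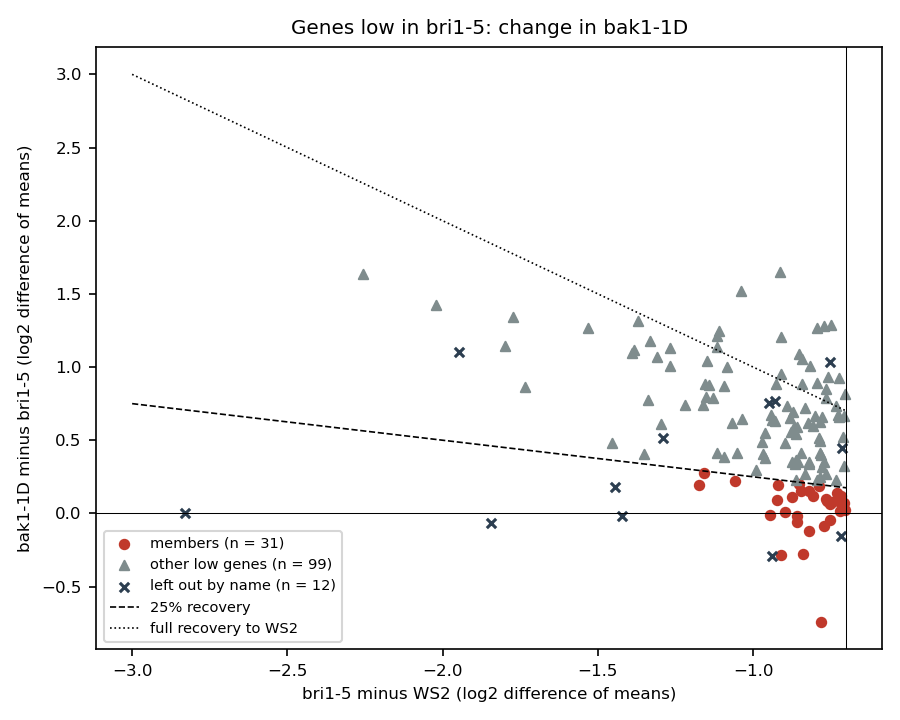
Each point is a probe set at least 0.7 log2 below WS2 in bri1-5, with its bri1-5 minus WS2 difference on the x axis and its bak1-1D minus bri1-5 difference on the y axis. The 31 members (circles) lie under the dashed line of 25% recovery, the 99 other low probe sets (triangles) above it, and crosses mark the 12 left out by name.

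Just inside the size threshold were AT5G06270 at -0.71 and AT1G68500 at -0.71, and just outside it AT4G28780 and AT3G62110, both at -0.69. Just inside the limit on recovery were AT5G03120 at 23.6% and AT5G52790 at 23.5%, and just outside it AT2G39850 at 26.1% and AT5G45670 at 28.7%. Membership depended on single arrays. With 1 of the 9 arrays left out, the rule took 24 to 44 genes, and 8 of the 31 were taken in every such setting, namely AT4G25260, TBL45, AT1G75900, AT1G61240, AT3G28500, AT2G39920, AT1G12080 and AT1G11850. With a gap of at least 1 log2 unit it took 3 genes, AT2G28780, AT5G03120 and AT4G24350.

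Of the 31 genes, 23 lay above the log2 minimum of 4 on all 15 arrays, and 1, AT4G25250, had fewer than 3 arrays above it outside WS2. All 31 were matched to a RefSeq gene, and 4 of them have a symbol other than a locus code, TBL45, HLL, rps14 and ndhF. The other 27 are known here by locus code, and no role is given for them. AT1G22330 alone had a second tested probe set, whose means were 5.44 in bak1-1D and 5.17 in bri1-5, against 6.0 in WS2. There bri1-5 minus WS2 was -0.83 and bak1-1D minus bri1-5 was 0.27, more than the rule allows. That probe set goes against the gene's membership and is 1 of the 99 other low probe sets below.

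**Figure D2:**
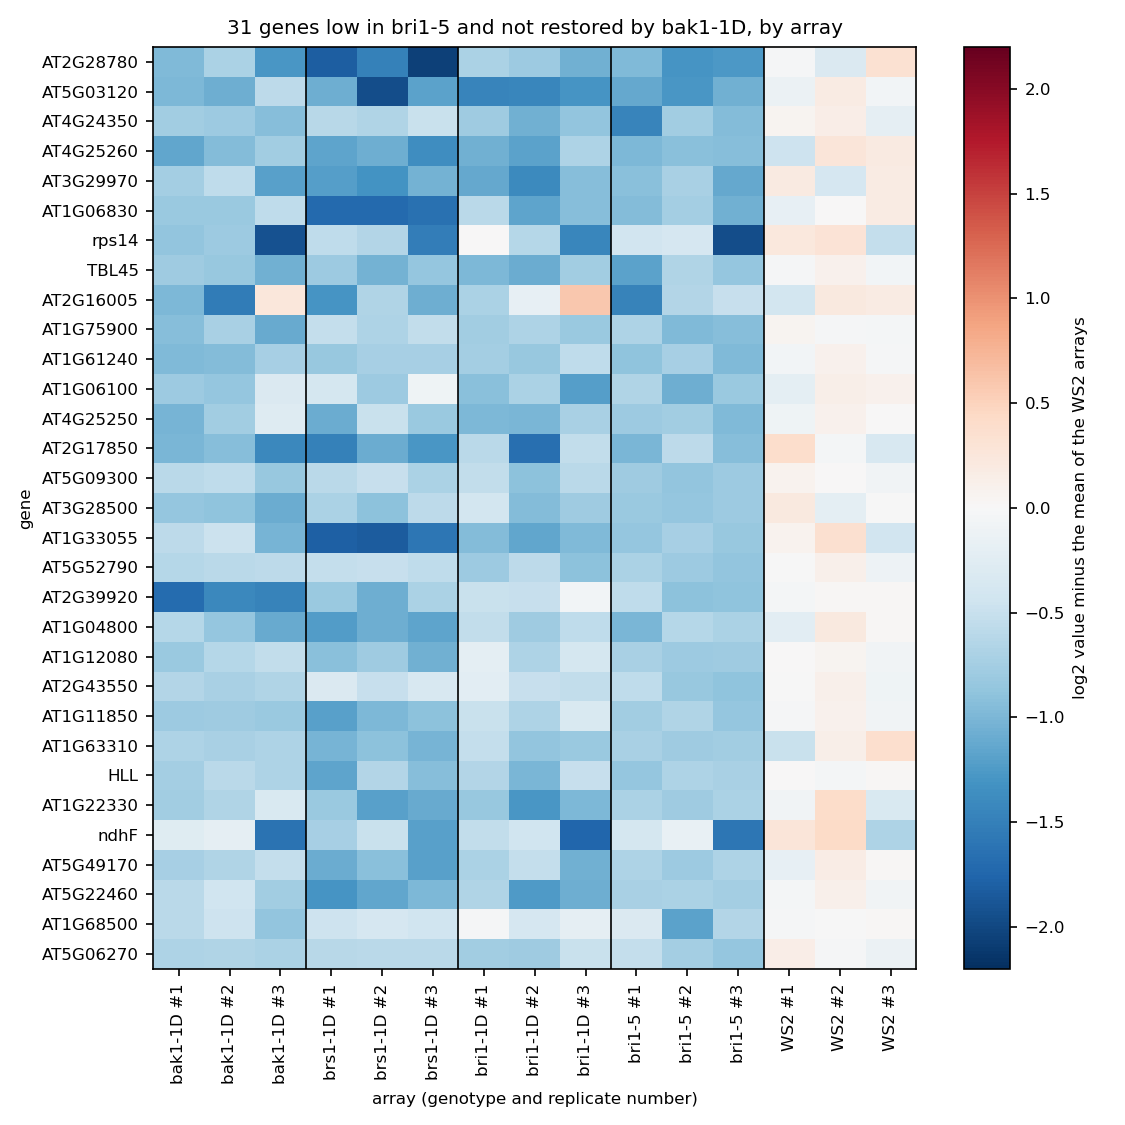
Rows are the 31 members ordered by their gap between bri1-5 and WS2, columns the 15 arrays in blocks of 3 per genotype, and colour the log2 value minus the mean of the WS2 arrays. All 12 columns of the bri1-5 lines lie below the WS2 mean for 29 members, and rps14 and AT2G16005 are the exceptions.

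For 27 of the 31 genes all 12 arrays of the bri1-5 lines lay below all 3 WS2 arrays, as they did for 5.08% of all tested probe sets. The brs1-1D and bri1-1D arrays did not enter the rule, although the WS2 arrays they are set against did. On those 6 arrays alone the same 27 genes lay below every WS2 array, where 9.84% of all probe sets did, and so did 82 of the 99 other low probe sets, those that bak1-1D raised by more than 25% of the gap. The high WS2 values that chose the members enter each of these counts. AT2G16005, AT1G06100, rps14 and ndhF were the 4 members that overlapped with WS2.

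TBL45 belongs to the trichome birefringence-like family, several members of which add acetyl groups to cell wall polysaccharides. TBL45 stood at 7.63, 7.58 and 7.36 in bak1-1D, 7.60, 7.38 and 7.56 in brs1-1D, 7.42, 7.32 and 7.65 in bri1-1D and 7.23, 7.75 and 7.55 in bri1-5, against 8.39, 8.49 and 8.34 in WS2. The 4 bri1-5 lines overlapped with each other and none reached WS2. TBL45 stood -0.89 ± 0.12 from WS2 in brs1-1D and -0.95 ± 0.12 in bri1-1D (SE, n = 3 against 3), given without a test because the WS2 arrays chose the members. Between brs1-1D and bri1-1D it differed by 0.05, with a 95% interval of -0.21 to 0.31.

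Most other genes of the family showed no such gap. Of 16 tested TBL genes 4, with TBL45 among them by its choice, were called lower and 1 higher in bri1-5 against WS2, with a median of -0.07. TBL30 (-0.44), TBL38 (-0.35) and TBL34 (-0.35) fell beside TBL45, and TBL36 rose by 0.32. TBL38 stood 0.42 above bri1-5 in bak1-1D. Over all probe sets 8.14% were called lower and 9.45% higher in bri1-5. The list of cell wall matrix genes that holds the family had 22 tested genes (median -0.08). Its 4 lower and 1 higher in bri1-5 were these same TBL genes and no further result. Limma called 0 of the list in brs1-1D against bri1-1D, where 0.836% of all probe sets were called lower and 1.34% higher. At an unadjusted p under 0.05 there were 3, where 16.8% of all probe sets were.

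HLL codes for a ribosomal protein of the mitochondrion and is named after HUELLENLOS, a mutant with defective ovules. HLL stood at 6.35, 6.50 and 6.42 in bak1-1D, 5.94, 6.44 and 6.15 in brs1-1D, 6.45, 6.09 and 6.58 in bri1-1D and 6.24, 6.42 and 6.39 in bri1-5, against 7.10, 7.06 and 7.12 in WS2. Every array of the bri1-5 lines lay below every WS2 array. Its difference from the same WS2 arrays was -0.92 ± 0.13 in brs1-1D and -0.72 ± 0.13 in bri1-1D, again a description, and between the 2 lines it differed by -0.20, with a 95% interval of -0.46 to 0.07.

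The neighbouring loci AT4G25250 and AT4G25260 were the one pair of members next to each other on a chromosome. AT4G25260 stood at 6.38, 6.56 and 6.75 in bak1-1D, 6.36, 6.45 and 6.15 in brs1-1D, 6.46, 6.34 and 6.84 in bri1-1D and 6.54, 6.60 and 6.59 in bri1-5, against 7.07, 7.78 and 7.71 in WS2. AT4G25250, near the lower end of the scale, stood at 3.33, 3.58 and 4.07 in bak1-1D, 3.25, 3.85 and 3.53 in brs1-1D, 3.35, 3.35 and 3.64 in bri1-1D and 3.54, 3.59 and 3.38 in bri1-5, against 4.25, 4.44 and 4.36 in WS2. Both genes were low on every array of every bri1-5 line. Brs1-1D minus WS2 was -1.20 ± 0.17 for AT4G25260. For AT4G25250, which passed the filter through its WS2 arrays, it was -0.81 ± 0.17, and -0.35 with values under 4 set to 4.

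The genes beside the members were mostly near their WS2 level in bri1-5. Within 2 genes on either side of a member, 36 tested probe sets of other genes gave a median of 0.01 in bri1-5 against WS2, with 2 called lower and 1 higher. Over all tested probe sets the median was 0.02, with 8.14% called lower and 9.45% higher, so nothing particular to the neighbours is read from this. The 2 neighbours called lower were AT4G24380 near AT4G24350 (-1.37), which bak1-1D raised by 1.32, and AT1G75880 near AT1G75900 (-0.49), which stood 0.59 lower still in bak1-1D. By chromosome the members numbered 12 on chromosome 1, 6 on 2, 2 on 3, 3 on 4, 6 on 5 and 2 on the plastid genome, where the tested genes hold 25.9, 14.7, 20.1, 14.6, 23.4 and 0.797%.

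Several members without a symbol also lay below WS2 on every array of the bri1-5 lines. AT1G61240 stood at 4.64 to 5.05 on all 12 arrays of those lines, against 5.54 to 5.70 in WS2. AT5G06270 stood at 5.91 to 6.28 on the 12 arrays, against 6.63 to 6.92 in WS2. AT3G28500 stood at 6.95 to 7.63 on the 12 arrays, against 7.82 to 8.24 in WS2, and AT5G09300 at 5.29 to 5.69, against 6.12 to 6.27 in WS2. In the first 3 of these genes each suppressor line overlapped with bri1-5. In AT5G09300 the brs1-1D arrays lay above those of bri1-5 (0.22). WS2 stood apart in all 4.

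The remaining members gave the same order of WS2 above the bri1-5 lines, with more or less spread among the lines. AT3G29970 stood at 7.60 to 8.24 in bak1-1D, 7.48 to 7.76 in brs1-1D, 7.39 to 7.86 in bri1-1D and, in bri1-5, 7.66 to 8.08, against 8.43 to 8.98 in WS2. AT1G75900 stood at 6.79 to 7.20 in bak1-1D, 7.22 to 7.39 in brs1-1D, 7.08 to 7.22 in bri1-1D and, in bri1-5, 6.93 to 7.22, against 7.86 to 7.97 in WS2. In both genes the lines lay close together. AT2G17850 spread more, at 5.39 to 5.87 in bak1-1D, 5.31 to 5.71 in brs1-1D, 5.14 to 6.25 in bri1-1D and, in bri1-5, 5.79 to 6.22, against 6.46 to 7.19 in WS2. AT5G22460 stood at 5.82 to 6.15 in bak1-1D, 5.30 to 5.59 in brs1-1D, 5.34 to 5.92 in bri1-1D and, in bri1-5, 5.84 to 5.89, against 6.51 to 6.69 in WS2, so that its brs1-1D arrays lay below those of bri1-5. AT1G63310 had its lowest arrays in brs1-1D too, at 4.65 to 4.77, against 4.90 to 4.97 in bri1-5 and 5.19 to 6.04 in WS2. AT5G49170, AT1G22330 and AT5G52790 lay near the minimum of 4 in the bri1-5 lines. AT5G49170 stood at 3.84 to 4.11 in brs1-1D, against 4.22 to 4.35 in bri1-5 and 4.84 to 5.18 in WS2. AT1G22330 stood at 3.58 to 3.95 in brs1-1D, against 3.98 to 4.07 in bri1-5 and 4.44 to 5.18 in WS2. AT5G52790 went the other way, at 4.15 to 4.22 in brs1-1D, against 3.85 to 4.02 in bri1-5 and 4.61 to 4.83 in WS2.

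The comparison whose means share no array with the rule is brs1-1D against bri1-1D, although the model's spread uses all 15 arrays. Here 5 of the 31 genes were called lower in brs1-1D and 0 higher. Over all probe sets 0.836% were called lower and 1.34% higher. The genes that fell were AT2G28780, AT1G06830, AT1G33055, AT1G11850 and AT1G12080. In a fit of the 6 arrays of these lines alone, AT1G11850 and AT1G12080 lost their calls. At an unadjusted p under 0.05 there were 12 members, where all probe sets gave 16.8%. The median of the 31 genes was -0.15, beside -0.01 over all tested probe sets and 0.17 over the 99 other low probe sets, of which 0 were called lower and 4 higher. In 8 members all brs1-1D arrays lay below all bri1-1D arrays and in 2 above, where all probe sets gave 9.03% below and 9.1% above.

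The count rested on single arrays. It was 2 without brs1-1D replicate 1, without brs1-1D replicate 3 or without bri1-1D replicate 3, and 3 with array weights. In the same comparison the root hair markers stood higher in brs1-1D, with EXPA7 averaging 5.5 in brs1-1D against 4.82 in bri1-1D, and EXPA18 averaging 5.77 in brs1-1D against 5.42 in bri1-1D, while PYK10 stood at 12.03 in brs1-1D and 11.87 in bri1-1D. The part of root or root hair RNA in the result was not tested.

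**Figure D3:**
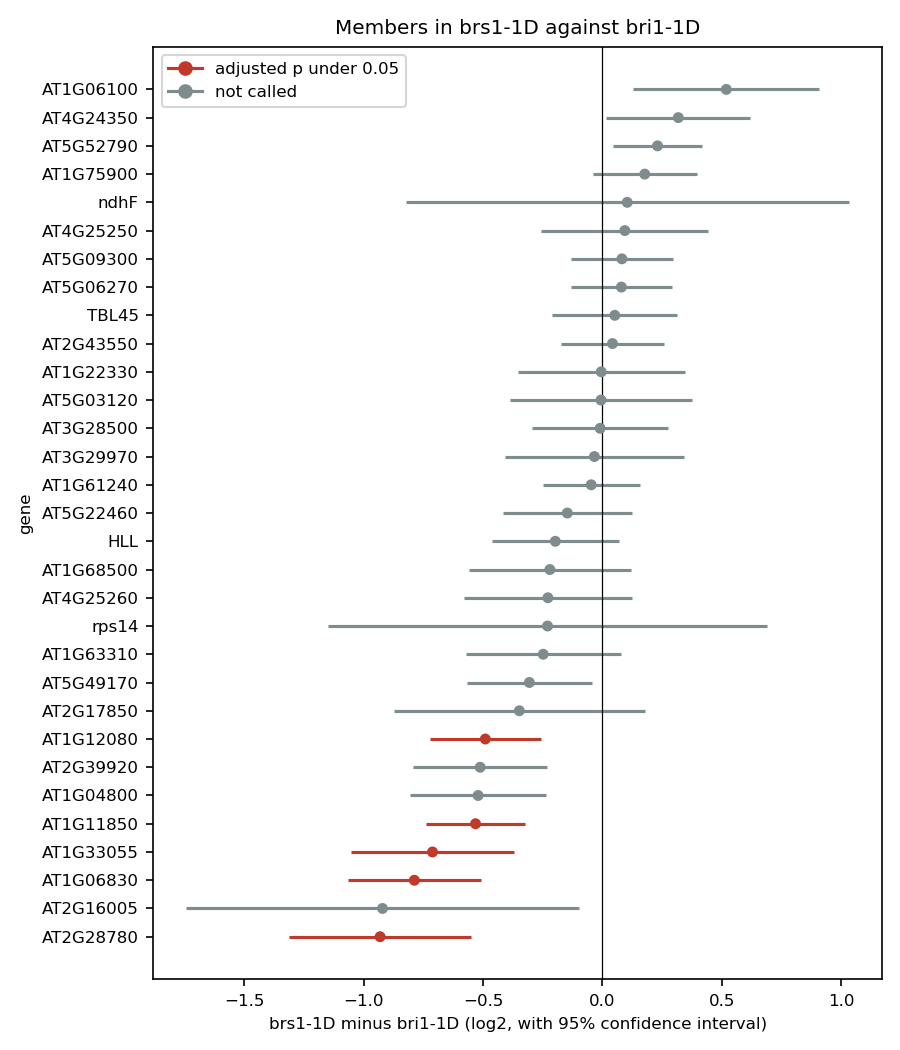
Points are brs1-1D minus bri1-1D on the log2 scale for the 31 members, bars their 95% confidence intervals from the limma model, with the called genes in red. The called genes run from -0.93 (AT2G28780) to -0.49 (AT1G12080), and the intervals of rps14, ndhF and AT2G16005 are the widest.

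AT1G06830 was the steadiest of the 5. It stood at 4.94, 4.94 and 5.01 in brs1-1D, against 6.05, 5.49 and 5.71 in bri1-1D. The other lines gave 5.84, 5.83 and 6.09 in bak1-1D and 5.69, 5.91 and 5.60 in bri1-5, against 6.47, 6.65 and 6.83 in WS2. The 3 brs1-1D arrays lay below every other array, and those of bak1-1D, bri1-1D and bri1-5 lay between them and WS2. The difference of brs1-1D from bri1-1D was -0.79 ± 0.13 (SE, n = 3 against 3, limma adjusted p = 0.00597), or 1.73-fold, and the call held in all 24 alternatives.

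AT1G33055 gave the same picture. It stood at 6.64, 6.60 and 6.84 in brs1-1D, against 7.47, 7.29 and 7.45 in bri1-1D. It stood at 7.86, 7.96 and 7.42 in bak1-1D and 7.58, 7.70 and 7.60 in bri1-5, against 8.51, 8.78 and 8.01 in WS2. Every brs1-1D array lay below every other array. Brs1-1D minus bri1-1D was -0.71 ± 0.16 (limma adjusted p = 0.0301), and leaving out any 1 of the 6 arrays of the 2 lines ended the call, as did array weights (adjusted p from 0.0116 to 0.105 over the alternatives).

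AT2G28780 fell farthest. It stood at 3.55, 3.88 and 3.30 in brs1-1D, against 4.67, 4.56 and 4.31 in bri1-1D. It stood at 4.39, 4.67 and 4.08 in bak1-1D and 4.39, 4.06 and 4.10 in bri1-5, against 5.34, 5.05 and 5.70 in WS2. The brs1-1D arrays were all under the log2 minimum of 4 used to filter probe sets, and no other array was. Brs1-1D minus bri1-1D was -0.93 ± 0.18 (limma adjusted p = 0.0142). With values under 4 set to 4 it was -0.51 with an adjusted p of 0.113, and without brs1-1D replicate 1 or 3 the adjusted p was 0.0518 and 0.0687 (range over the alternatives 0.0118 to 0.113).

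In AT1G11850 and AT1G12080 bri1-1D stood nearer to WS2 than the other lines. AT1G11850 stood at 5.58, 5.79 and 5.86 in brs1-1D, against 6.29, 6.10 and 6.44 in bri1-1D (-0.53 ± 0.10, limma adjusted p = 0.0107). AT1G12080 stood at 7.74, 7.88 and 7.59 in brs1-1D, against 8.43, 7.98 and 8.27 in bri1-1D (-0.49 ± 0.11, adjusted p = 0.0295). The bri1-5 arrays stood at 5.93 to 6.12 for AT1G11850 and 7.85 to 7.93 for AT1G12080, and in both genes brs1-1D lay below bri1-1D on every array. The call of AT1G11850 was lost without bri1-1D replicate 3 and in a fit of the 6 arrays alone (adjusted p from 0.0081 to 0.0715 over the alternatives). That of AT1G12080 was lost without 1 of 4 arrays, bri1-1D replicates 1 and 3 and brs1-1D replicates 1 and 3, with array weights and in the fit of 6 arrays (0.0109 to 0.129).

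AT1G04800 (-0.52 ± 0.13, adjusted p = 0.0567) and AT2G39920 (-0.51 ± 0.13, adjusted p = 0.0564) missed the threshold, although in both genes all brs1-1D arrays lay below all bri1-1D arrays. AT1G04800 was called in 8 of the alternatives and AT2G39920 in 4. AT1G06100 had the largest positive difference, 0.52 ± 0.18 (adjusted p = 0.158), with arrays that overlapped.

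**Figure D4:**
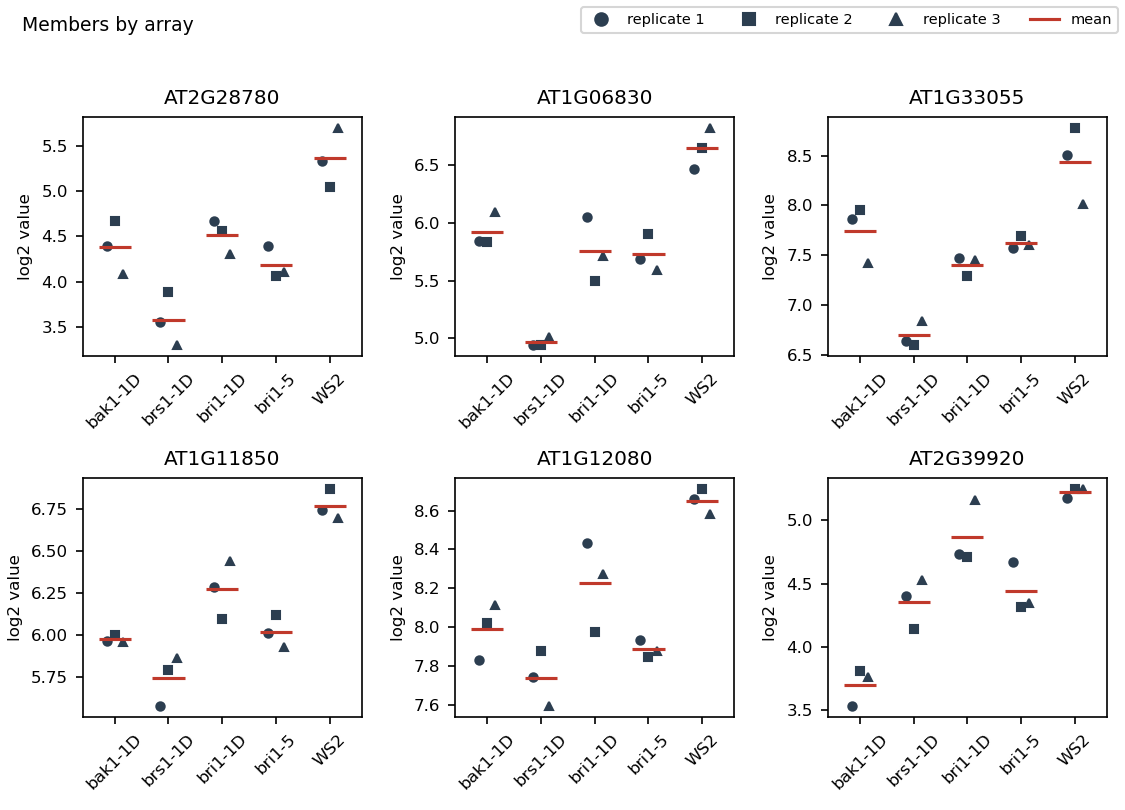
Log2 values of 6 members on every array, with genotypes on the x axis, a symbol for each replicate number and a red line for the mean. In AT1G06830 and AT1G33055 the 3 brs1-1D arrays lie below all others, and in AT2G39920 the 3 bak1-1D arrays do.

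AT2G39920 went farthest from WS2 in bak1-1D. It stood at 3.53, 3.81 and 3.76 in bak1-1D, against 4.67, 4.32 and 4.34 in bri1-5 and 5.17, 5.25 and 5.25 in WS2. It stood at 4.41, 4.14 and 4.53 in brs1-1D and 4.74, 4.71 and 5.16 in bri1-1D. The bak1-1D arrays lay below all 12 others and under the minimum of 4, and bak1-1D minus bri1-5 was -0.74 ± 0.13, given without a test because the rule used it. Among the 31 genes 9 stood lower in bak1-1D than in bri1-5, and after AT2G39920 the lowest were rps14 (-0.28), AT2G17850 (-0.28) and AT3G28500 (-0.12).

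The comparisons with WS2 use the WS2 arrays that chose the members, so their counts are partly set by that choice and nothing is read from them. Against WS2, brs1-1D was called lower in 26 of the 31 genes, where 9.46% of all probe sets were. AT4G25250 was among them, but it passed the filter through its WS2 arrays, so nothing is read from its call. The differences ran from -1.78 in AT2G28780, -1.74 in AT1G33055 and -1.68 in AT1G06830 to -0.39 in AT2G43550 (median -0.92). The 5 genes not called were rps14, AT2G16005, AT1G06100, ndhF and AT1G68500. The call of AT2G43550 was lost without WS2 replicate 2 or brs1-1D replicate 2.

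Bri1-1D was called lower than WS2 in 26 of the 31 genes too, where 10.3% of all probe sets were, with a median of -0.76. AT4G25250 was among these as well, with the same limit. AT5G03120 stood lowest, at 5.72, 5.75 and 5.88 in bri1-1D against 7.06, 7.36 and 7.13 in WS2 (-1.40 ± 0.18). The genes not called were rps14, AT2G16005, AT2G39920, ndhF and AT1G68500. Of the calls, AT1G12080 was lost without bri1-1D replicate 2, and AT2G17850 without WS2 replicate 1, without bri1-1D replicate 2 and in a fit of the 6 arrays.

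The comparisons with bri1-5 use the bri1-5 arrays that chose the members. Their counts are partly set by that choice, and nothing is read from them. Against bri1-5, brs1-1D was called lower in 2 genes, AT1G33055 (-0.93 ± 0.16) and AT1G06830 (-0.77 ± 0.13), and higher in 0. All probe sets gave 0.534% lower and 1.18% higher. Both calls held in all 24 alternatives, each of which also used bri1-5 arrays that chose the members. The highest values were those of AT4G24350, at 7.12, 7.07 and 7.25 in brs1-1D against 6.27, 6.96 and 6.78 in bri1-5 (0.47 ± 0.14), and AT1G06100 (0.43). AT2G43550 stood at 8.97, 8.78 and 8.94 in brs1-1D, against 8.72, 8.46 and 8.40 in bri1-5 (0.37 ± 0.10). It was not called in the main model, but was with the replicate number as a block, limma trend, array weights or without 1 of 2 arrays. Without bri1-1D replicate 1, which enters through the shared estimate of spread, 4 genes were called, with AT2G43550 higher and AT5G22460 lower beside the 2.

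Between bri1-1D and bri1-5, 0 of the 31 genes were called by limma, where 0.245% of all probe sets were, and 6 members had an unadjusted p under 0.05, where 10% of all probe sets did. The largest differences were 0.78 ± 0.39 in AT2G16005, 0.51 ± 0.16 in AT1G68500 and 0.43 ± 0.13 in AT2G39920. AT1G68500 stood at 6.59, 6.24 and 6.43 in bri1-1D, against 6.30, 5.45 and 5.98 in bri1-5 and 6.60, 6.60 and 6.65 in WS2. AT2G16005 stood at 5.12, 5.64 and 6.40 in bri1-1D, against 4.35, 5.16 and 5.31 in bri1-5 and 5.40, 6.03 and 6.0 in WS2. The bri1-1D arrays of both genes overlapped with those of bri1-5.

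As a share of the gap between bri1-5 and WS2, the 31 genes regained a median of 10.4% in bak1-1D, within the limit the rule set. The median was -15.9% in brs1-1D with a range of -115 to 50.2%, and 3.51% in bri1-1D with a range of -41.8 to 89.6%. In brs1-1D 7 genes and in bri1-1D 8 genes regained more than 25%, beside 38 and 24 of the 99 other low probe sets. The 99 other low probe sets regained a median of 20% in brs1-1D and 10.7% in bri1-1D. These shares all use the same bri1-5 and WS2 arrays and are a description. Of the 31 genes 16 had their lowest mean in brs1-1D, 5 in bak1-1D, 4 in bri1-1D and 6 in bri1-5.

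Of the members, 2 lie on the plastid genome. The gene rps14 codes for a protein of the small subunit of the plastid ribosome, and ndhF for a subunit of the plastid NADH dehydrogenase-like complex, which takes part in cyclic electron flow. On replicates 1, 2 and 3, rps14 stood at 6.32, 6.39 and 5.27 in bak1-1D, 6.62, 6.53 and 5.67 in brs1-1D, 7.19, 6.56 and 5.75 in bri1-1D and 6.77, 6.82 and 5.24 in bri1-5, against 7.41, 7.48 and 6.66 in WS2. In the same order ndhF stood at 4.76, 4.83 and 3.41 in bak1-1D, 4.30, 4.54 and 3.84 in brs1-1D, 4.49, 4.6 and 3.29 in bri1-1D and 4.64, 4.87 and 3.44 in bri1-5, against 5.31, 5.45 and 4.35 in WS2. Replicate 3 was the lowest array of every genotype for both genes, and on each replicate number the WS2 array was the highest.

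**Figure D5:**
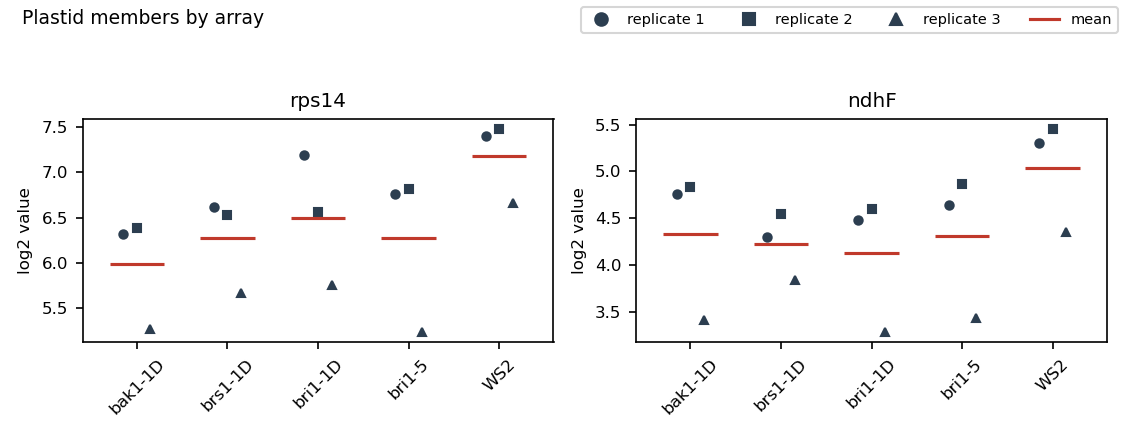
Log2 values of the plastid members rps14 and ndhF on every array, with genotypes on the x axis, a symbol for each replicate number and a red line for the mean. The triangles of replicate 3 lie lowest in every genotype, at 5.24 to 6.66 for rps14 and 3.29 to 4.35 for ndhF.

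Replicate 3 was the lowest array in all 5 genotypes for 8 of 69 tested plastid genes, or 11.6%, beside 2.52% of all tested probe sets and 0 of the 29 members of the nuclear genome. Within single genotypes it was lowest for 46 of the 69 in bak1-1D, 56 in brs1-1D and 62 in bri1-1D, but 19 in bri1-5 and 10 in WS2. In bri1-5 and WS2 replicate 1 was lowest more often, for 30 and 39. Of all 15912 probe sets, replicate 3 was lowest for 5305, 5501, 5107, 4700 and 5989 in the same order of genotypes. The 69 plastid genes had a median of -0.15 in bri1-5 against WS2, and 60 of them were lower in bri1-5, beside 7333 of all 15912 probe sets. The 69 were measured on the same arrays, so the 60 are not separate results. Limma called 0 of the 69, where 8.14% of all probe sets were called lower and 9.45% higher. An unadjusted p under 0.05 was found for 4, where 31.4% of all probe sets had one. With the replicate number as a block 6 were called lower, ndhG, petD, rpl36, petN and the members rps14 and ndhF, which the rule chose. That is 8.7% of the plastid genes, near the 9.52% of all probe sets called lower with the block. In bak1-1D against bri1-5 the median of the plastid genes was -0.15, and limma called 0, 1 of them having an unadjusted p under 0.05, where 19.1% of all probe sets did. The photosynthesis list, which holds ndhF, had 0 of 49 tested genes called by limma in bri1-5 against WS2 (median -0.10, 1 at an unadjusted p under 0.05) and 0 in brs1-1D against bri1-1D (median 0.04, 4 at an unadjusted p under 0.05). At that unadjusted p the shares over all probe sets were 31.4% and 16.8%. In brs1-1D against bri1-1D 0.836% of all probe sets were called lower and 1.34% higher. The other 14 of 16 lists held no member.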

How the data were processed

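Each probe set has 1 deposited log2 value per array, which the authors made with GCRMA per the submitters' processing notes, without a version or settings. Of 22810 probe sets 13513 had 1 gene in the platform table, 503 several, and 8730, the 64 array controls apart, none listed. Probe sets with a log2 value above 4 on at least 3 of 15 arrays were tested (15912 without controls). One limma 3.58.1 model (R 4.3.3, 1 mean per genotype, no trend) covered all arrays; calls are at a Benjamini-Hochberg adjusted p under 0.05 over all tested probe sets, and errors are the model's SE. The p-values measure the spread between 3 arrays a genotype, and that number limits the precision.

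Members and lists were chosen with earlier results of these data known. All 31 members are named. The wall and photosynthesis lists were symbol patterns; the plastid genes were grouped after the members were seen. Locus codes, chromosomes and gene order came from RefSeq (TAIR10.1). Groups and replicate numbers came from the sample titles. The sample descriptions give all bak1-1D and all brs1-1D arrays the same repeat number, unlike the titles. The replicate numbers of these lines therefore rest on the titles alone. Deviations of same-number arrays from their genotype means correlated above 0.1 in every pair for bri1-5 and brs1-1D (0.159 to 0.191), bri1-5 and bri1-1D (0.103 to 0.268) and bri1-5 and WS2 (0.104 to 0.346). There the numbers were taken to pair the arrays. In the other pairs of genotypes, brs1-1D and bri1-1D among them (-0.02 to 0.28), the correlations did not all pass 0.1. Correlations of unlike-number arrays were not computed for reference. The pairing rests on the data, as the labels name no shared batch. The main model held no block, so its calls, errors and p-values leave this pairing out. Results with the replicate number as a block are given as an alternative. The main model was tested on simulated data for brs1-1D against bri1-1D. It called 99% of changes of 1 log2 unit and 60% of changes of 0.5, with 7 false calls. The simulated arrays had independent noise and no replicate effect, so changes near 0.5 can be missed and the pairing was not tested. Alternatives changed the filter, the scaling, the floor, the variance model, the array weights, the block, the samples fitted and both thresholds of the rule. Promoter motifs, planned too, were not analysed here.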

Additional observations from a re-analysis of the deposited data

Results flagged for a closer look

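The effects of brs1-1D and bri1-1D on bri1-5 differed in the 5 genes called in brs1-1D against bri1-1D. Since bri1-5 cancels from the difference of the effects, this is that same comparison and no second result. In AT2G28780 brs1-1D stood -0.61 and bri1-1D 0.32 from bri1-5, a difference of -0.93 (limma adjusted p = 0.0142). In AT1G06830 the effects were -0.77 and 0.02 (difference -0.79, adjusted p = 0.00597), and in AT1G33055 -0.93 and -0.22 (difference -0.71, adjusted p = 0.0301). In AT1G12080 they were -0.15 and 0.34 (difference -0.49, adjusted p = 0.0295), and in AT1G11850 -0.28 and 0.25 (difference -0.53, adjusted p = 0.0107). Groups of 3 arrays were too small for a test of single outlying arrays.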

How the results depend on the processing

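With 1 array left out, the members called ran from 2 to 7 in brs1-1D against bri1-1D, 25 to 27 in brs1-1D against WS2, 24 to 27 in bri1-1D against WS2, 2 to 4 in brs1-1D against bri1-5 and 0 to 0 in bri1-1D against bri1-5, and the number of members from 24 to 44. Array weights gave 3 in brs1-1D against bri1-1D; the cause was not tested. A gap of at least 1 log2 unit gave 3 members and a recovery of at most 10% gave 13, both by their construction. With the replicate number as a block the members called in the comparisons, in the order above, were 6, 29, 28, 3 and 0. In the comparisons with WS2 the block called rps14 and ndhF lower in both lines; same-number arrays of those pairs did not all correlate above 0.1, and the block added AT2G16005 in brs1-1D against WS2 and AT2G39920 in brs1-1D against bri1-1D. The other planned settings (no filter, stricter filter, median centring, quantile normalization, floor, limma trend, 2 genotypes alone) moved no count of called members by over 1.5 times. No difference of a called member changed sign under these settings. Signal over background limits 8 members that lay under 4 on some arrays, AT4G25250 on 11, AT1G22330 on 7, AT5G52790 and ndhF on 4 each, AT2G28780, AT2G39920 and AT5G49170 on 3 each and AT1G06100 on 2; the floor ended the call of AT2G28780 in brs1-1D against bri1-1D. Promoter motif counts were not run.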
